A study of Mus musculus with 6 samples.

Results

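Regulatory T (Treg) cells restrain other immune cells and help to repair tissue through a small set of secreted and surface-bound products. The mRNAs of 10 such mediators were followed here: Il10, Ebi3, Il12a, Tgfb1, Lrrc32, Entpd1, Nt5e, Fgl2, Areg and Penk. They were taken by gene symbol from 21899 listed genes, and each symbol matched 1 identifier. Of the 10, 9 had enough counts to be tested among 12768 tested genes, and Il12a had not.

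The cells were induced Treg cells (iTregs), made in culture from CD4+ T cells of the spleen and profiled by bulk mRNA sequencing. The 3 WT samples came from control mice named iWT and the 3 KO samples from mice named Dlst-Treg iKO, by that name an inducible knockout of Dlst in Treg cells. The Dlst protein is a core part of 2-oxoglutarate dehydrogenase, a TCA cycle enzyme. Both groups received 4-hydroxytamoxifen, which switches on inducible Cre recombinase, during the 2 days of Treg polarisation, and both were sorted for CD4, the FoxP3-GFP reporter and red tdTomato fluorescence. The sources used here do not give the promoter that drives Cre, the other alleles or the age of the mice. They also do not say whether samples are separate animals or cultures. The p-values therefore weigh the group difference against the spread between these samples only, and that spread may be technical.

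IL-10 and IL-35, a pair of Ebi3 and Il12a chains, are inhibitory cytokines. TGF-beta is made as a latent protein that GARP, the product of Lrrc32, holds on the Treg surface until integrins release it. CD39 (Entpd1) strips phosphates from extracellular ATP and ADP, and CD73 (Nt5e) turns the resulting AMP into adenosine, which signals through adenosine receptors. FGL2 is a secreted fibrinogen-like protein that binds Fc receptors, and amphiregulin (Areg) is an EGF receptor ligand of tissue repair. Penk encodes the precursor of the enkephalin opioid peptides.

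The libraries held 33590510 to 49772670 estimated counts. Values are given as CPM (counts scaled to library size, with TMM factors) or, where genes are compared with each other, as TPM (which also accounts for gene length). Dlst stood at 161, 149 and 149 CPM in WT and 125, 129 and 129 CPM in KO, and Foxp3, whose reporter was sorted, at 154, 202 and 198 CPM in WT and 231, 207 and 227 CPM in KO. Neither passed with edgeR (adjusted p = 0.0894 for Dlst and 0.305 for Foxp3), and DESeq2 called Dlst. Of 8 genes of Treg and CD4 T cell identity, edgeR called 1 lower and 0 higher in KO, against 0.219% and 0.454% of all tested genes. It was Ikzf2, which encodes the Treg transcription factor Helios (log2 fold change -0.57, SE 0.09, edgeR adjusted p = 0.0366). Ikzf2 was at 30.8, 37.3 and 30.6 CPM in WT and 21.3, 23.0 and 22.1 CPM in KO. Without KO replicate 1, 0 of the 8 passed (82 genes passed in all). Without WT replicate 1 and KO replicate 1 together, 2 of the 8 passed (538 in all). Cd4 was 506 to 522 CPM in WT and 432 to 465 CPM in KO, and Trac, the T cell receptor alpha constant gene, 263 to 360 and 416 to 441 CPM. Neither passed with edgeR (adjusted p = 0.151 and 0.111), and DESeq2 called both. The Trac difference depended on the unit: in TPM its groups overlapped, at 855 to 948 in WT and 892 to 936 in KO. KO replicate 1 stood apart in Y-linked mRNA: the gene Ddx3y was at 80.8 CPM there and between 0 and 0.0257 CPM in the other 5 libraries. Of further Y-linked genes, Eif2s3y was at 82.4 CPM there and 0 elsewhere, and Uty at 28.2 and at most 0.0639 CPM. Kdm5d was at 61.8 CPM there and at 0.624 to 1.22 CPM elsewhere, which is low but not 0. By Ddx3y, Eif2s3y and Uty, KO replicate 1 held male cells and the other 5 libraries did not. Sex thus differed within KO and between the groups. The sources used here do not give sex. KO replicates 2 and 3 were closest to each other, with a biological coefficient of variation of 2.97%. KO replicate 1 stood at 14.3 and 12.5% from them. In WT, replicates 2 and 3 were at 7.12%, and WT replicate 1 at 14.4 and 14.8% from them. WT replicate 1 thus also stood apart from its group, and it was the lowest WT library for 7 of the 10 members. The counts of KO replicates 2 and 3 still differed by more than sampling noise, with a chi-square of 3.50 per gene where noise alone gives about 1. Separate preparations of 1 culture could differ as much, so this cannot show that they are independent. They were kept as 2 samples because they are labelled so.

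Markers of several other cell types moved with genotype. The summed level of 13 macrophage and monocyte markers was 20.7 to 31.7 CPM in WT and 99.7 to 378 CPM in KO. All 8 tested markers had every KO sample above every WT sample, which held for 11.9% of all tested genes. Of the markers with too few counts to be tested, C1qa, C1qb, C1qc and Ms4a7 overlapped between the groups, and Fcgr1 lay above WT in each KO sample. The 10 neutrophil markers summed to 4.95 to 31.8 CPM in WT and 74.5 to 302 CPM in KO. Every KO sample lay above every WT sample for all 9 tested, against the same 11.9%, and the untested Elane overlapped. In both lists KO replicate 1 was highest. Mast cell and basophil markers summed to 4.75 to 9.01 CPM in WT and 14.0 to 15.6 CPM in KO (7 markers, 6 tested). For 5 of the 6 every KO sample lay above every WT sample, again against 11.9%. The sums were 409 to 422 against 423 to 547 CPM for dendritic cells (8 markers, mostly Ccr7, which T cells express) and 95.0 to 146 against 135 to 167 CPM for CD8 T and NK cells (8 markers). B cell markers summed to 121 to 298 CPM in WT and 161 to 198 CPM in KO (8 markers, highest in WT replicate 1), and those of red cells and platelets to 2.22 to 3.35 CPM over all libraries (8 markers). No marker of these lists was at 0 in every library. Macrophages, dendritic cells and B cells can also express Il10, Ebi3, Fgl2 and Entpd1, and the part of such cells in the values below was not tested. In bulk samples, fewer cells of a type and less RNA per cell cannot be told apart.

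Penk was the member that passed the test, falling in KO to 0.515 of its WT level (95% interval 0.423 to 0.627). The other 8 tested members did not pass: Il10, Entpd1, Fgl2, Areg, Nt5e and Tgfb1 had log2 fold changes from -0.39 to -0.05, and Ebi3 and Lrrc32 stood at 0.07 and 0.32. At an adjusted p under 0.05 (edgeR quasi-likelihood, adjusted across every tested gene after Benjamini and Hochberg), 1 of 9 members was lower and 0 were higher. The background was 0.674% of all tested genes, 0.219% lower and 0.454% higher. At an unadjusted p under 0.05, 2 of 9 members were lower (Penk and Entpd1) and 0 higher, against 6.60% and 8.47% of all tested genes (15.1% in all). DESeq2 called 1 lower (Penk) and 0 higher, against 1.29% and 2.88% (4.17% in all). The median log2 fold change of the 9 was -0.13 and that of all tested genes -0.00. The median size of the change, without its sign, was 0.26 for the members and 0.10 for all tested genes. Every KO sample lay below every WT sample for Penk and Entpd1, 2 of 9, which held for 10.9% of all tested genes. For 0 of 9 did every KO sample lie above, against 11.9% (22.8% in either direction). Without KO replicate 1 the median of the members was -0.13, and without WT replicate 1 and KO replicate 1 together it was -0.19. Penk passed in both cases, but not in 5 other settings given below with its values.

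**Figure D1:**
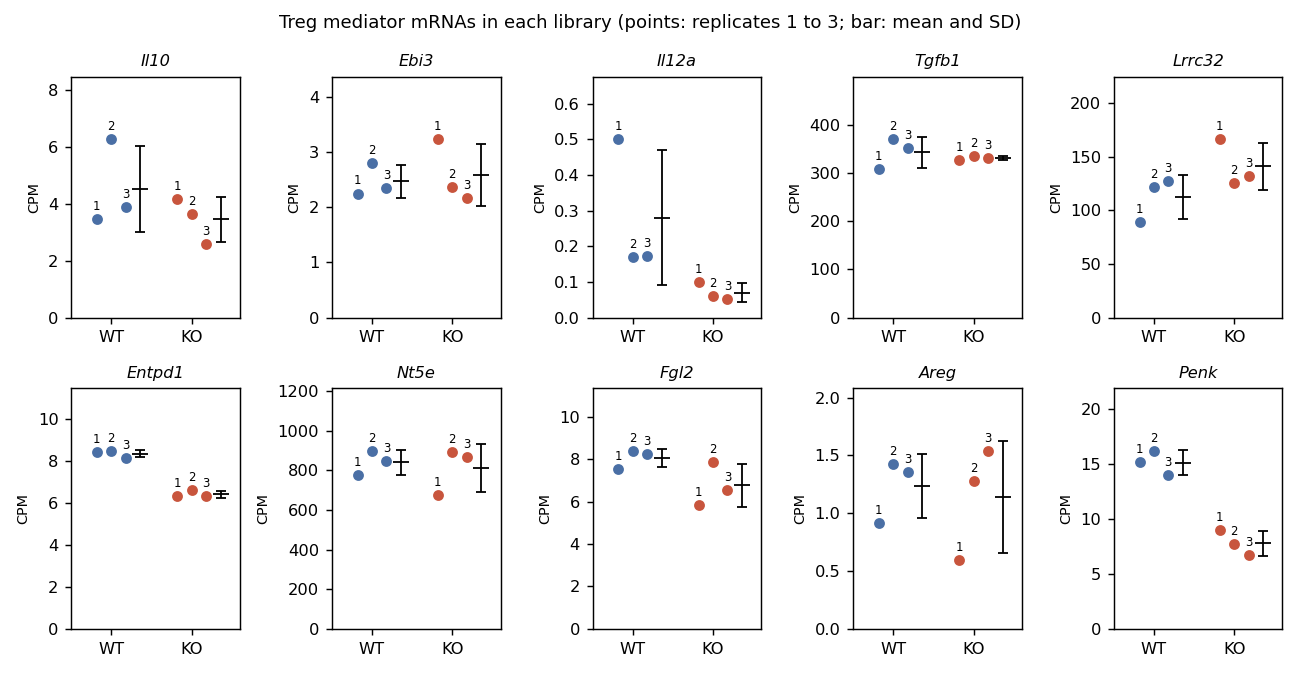
Level of each of the 10 mediator mRNAs in CPM (vertical axes, from 0) in WT and KO, with points for replicates 1 to 3 and a bar for the mean and SD. Penk lies at 14.0 to 16.2 CPM in WT and 6.69 to 8.96 CPM in KO, Entpd1 at 8.16 to 8.48 and 6.31 to 6.60 CPM, and the groups of all others but Il12a overlap.

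**Figure D2:**
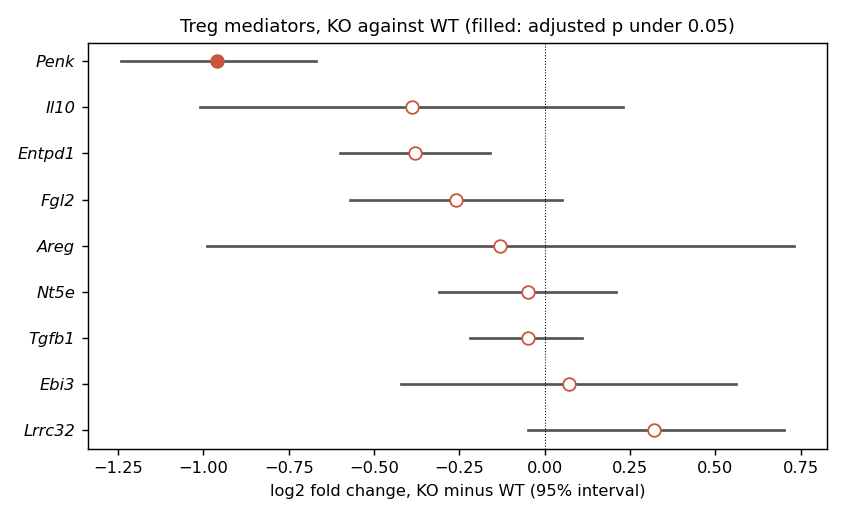
Log2 fold change, KO minus WT (horizontal axis), of the 9 tested members with 95% intervals from edgeR, filled where the adjusted p is under 0.05. Penk at -0.96 is the filled point, and the Entpd1 interval of -0.60 to -0.16 also lies below 0.

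Per gene length, Nt5e and Tgfb1 made up most of the mRNA of the set. In WT their mean levels were 365 ± 23.2 and 279 ± 22.0 TPM (SD, n = 3), or 49.4% and 37.7% of the summed TPM of the 10 genes. Lrrc32 followed at 53.1 ± 10.8 TPM and Penk at 20.5 ± 1.15 TPM. Each of these 4 levels was separated from the next by more than the SDs. Entpd1 (6.17 ± 0.855 TPM) and Il10 (6.01 ± 1.91 TPM) were not separated, and neither were Il10 and Ebi3 (3.72 ± 0.400 TPM) or Ebi3 and Fgl2 (3.70 ± 0.179 TPM). Areg was lower at 1.76 ± 0.385 TPM, and Il12a lowest at 0.376 ± 0.256 TPM. The order was the same in KO. The step from Penk to Entpd1 shrank from 3.32-fold in WT to 1.90-fold in KO, with Penk at 10.1 ± 1.47 TPM and Entpd1 at 5.31 ± 1.27 TPM in KO. Areg in KO had the widest relative spread of the tested members on the CPM scale, with an SD of 42.7% of the mean, and Tgfb1 in KO the narrowest at 1.13%.

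RefSeq promoter windows (GRCm38.p6), from 250 bases before to 50 after each annotated start, were matched for 7 of the 10 members, 9 windows in all. The windows of the highest members were rich in CG dinucleotides, the site of DNA methylation: Tgfb1 held 30 and Nt5e 23, more than 88.3% and 78.5% of all 32851 windows, whose median was 7. Ebi3 held 2. Areg, near the bottom of the order, held 21, so the count of CG did not follow the level across all members. The windows of Nt5e (chr9:88327359-88327658, plus strand) and Ebi3 (chr17:55952373-55952672, plus strand) are shown for this contrast, 5′ to 3′, with each CG in capitals.
Nt5e: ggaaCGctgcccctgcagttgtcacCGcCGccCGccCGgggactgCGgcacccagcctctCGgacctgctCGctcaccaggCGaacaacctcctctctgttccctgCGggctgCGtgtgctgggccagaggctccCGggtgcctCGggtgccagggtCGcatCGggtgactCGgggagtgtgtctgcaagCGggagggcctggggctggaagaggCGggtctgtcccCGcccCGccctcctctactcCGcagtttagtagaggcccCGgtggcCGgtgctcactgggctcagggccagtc
Ebi3: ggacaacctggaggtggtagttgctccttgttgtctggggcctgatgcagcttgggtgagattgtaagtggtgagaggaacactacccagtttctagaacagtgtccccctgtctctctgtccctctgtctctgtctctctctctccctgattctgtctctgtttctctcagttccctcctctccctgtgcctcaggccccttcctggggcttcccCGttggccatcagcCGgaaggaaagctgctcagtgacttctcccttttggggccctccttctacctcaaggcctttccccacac
The count of CG describes these letters, and methylation was not measured here.

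Among the inhibitory cytokines, Il10 was at 3.47, 6.26 and 3.87 CPM in WT and 4.15, 3.64 and 2.60 CPM in KO. WT replicate 2 was the highest of all 6 libraries, and the groups overlapped. Its log2 fold change was -0.39 (SE 0.27, 95% interval -1.01 to 0.23, edgeR adjusted p = 0.537). It moved to -0.08 without WT replicate 2 and to -0.71 without both replicates 1, and passed in neither case. Il10 lies on chromosome 1 from 131019845 to 131024974 (plus strand; this and the positions below are from GENCODE M21, GRCm38).

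The chains of IL-35 were both scarce. Ebi3 (chromosome 17, 55952640 to 55957022, plus strand), the beta chain that IL-27 also uses, was at 2.25, 2.81 and 2.35 CPM in WT and 3.23, 2.36 and 2.16 CPM in KO. The highest value was in KO replicate 1, and the groups overlapped. Between groups the log2 fold change was 0.07 (SE 0.21, edgeR adjusted p = 0.904), turning to -0.13 without KO replicate 1. Il12a (chromosome 3, 68690644 to 68698547, plus strand), the p35 chain shared with IL-12, had 18, 8 and 8 counts in WT and 5, 2 and 2 counts in KO. Each KO library was below each WT library, and WT replicate 1 held most of the WT counts. Summed over libraries, 34 counts in WT and 9 in KO gave a ratio per library size of 3.57 (95% exact interval 1.68 to 8.46, counting error only). Without WT replicate 1 the ratio was 2.32 (0.965 to 5.95), so at this depth a difference was not detectable in the remaining libraries. Fitted with no low-count filter, Il12a had an edgeR adjusted p of 0.272.

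Of 14 other subunits, receptors and signalling genes of the IL-10 and IL-12 families, 13 were tested and 0 passed in either direction with edgeR. Their median on the log2 scale was 0.07, or -0.02 without KO replicate 1, with 3 higher and 1 lower at an unadjusted p under 0.05. For this and the lists below, the shares of all tested genes at that unadjusted p were 8.47% higher and 6.60% lower. At the edgeR adjusted threshold they were 0.454% and 0.219%, and with DESeq2 2.88% and 1.29%. Il10ra, the ligand-binding chain of the IL-10 receptor, had the smallest p: it was at 16.9, 19.2 and 25.1 CPM in WT and 38.5, 26.4 and 33.6 CPM in KO. All KO samples lay above all WT samples, by 0.69 on the log2 scale (SE 0.18, edgeR adjusted p = 0.165), and DESeq2 called it, the 1 gene of the list that it did. Macrophages also express Il10ra, and their markers were highest in the same KO library, a relation that was not tested. Of 12 transcription regulators of Il10, 12 were tested and 0 passed (median 0.03, or -0.02 without KO replicate 1; 3 higher and 2 lower at an unadjusted p under 0.05; DESeq2 called Ikzf3 higher). Ikzf3, which encodes Aiolos, was at 191, 182 and 186 CPM in WT and 274, 230 and 240 CPM in KO. Its log2 fold change was 0.41 (SE 0.07, edgeR adjusted p = 0.0572), and 0.34 without KO replicate 1, where it passed (0.0431).

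On the TGF-beta axis, Tgfb1 (chromosome 7, 25687002 to 25705077, plus strand) was at 308, 370 and 353 CPM in WT and 328, 335 and 332 CPM in KO. The KO values lay inside the WT range. The log2 fold change was -0.05 (SE 0.07), and its 95% interval of -0.22 to 0.11 covers folds from 0.860 to 1.08 (edgeR adjusted p = 0.765). Lrrc32 (chromosome 7, 98489283 to 98502181, plus strand) was at 88.9, 122 and 127 CPM in WT and 166, 125 and 132 CPM in KO. WT replicate 1 was the lowest library and KO replicate 1 the highest, and the other 4 lay close together. Lrrc32 had a log2 fold change of 0.32 (SE 0.16, edgeR adjusted p = 0.397). It was 0.05 without WT replicate 1 and KO replicate 1 together, so the difference in means rested on those libraries.

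The list of TGF-beta activation and receptor genes held 18 genes, of which 15 were tested and 0 passed in either direction with edgeR or DESeq2. At an unadjusted p under 0.05, 2 were higher and 1 was lower. The median log2 fold change was 0.11, or 0.08 without KO replicate 1, with 11 genes above 0 and 4 below. For 5 of the 15 every KO sample lay above every WT sample, against 11.9% of all tested genes: Ltbp4, which binds latent TGF-beta, the receptors Tgfbr1 and Tgfbr2, the signal transducer Smad3 and its inhibitor Smad7. Both the count and the share are on the CPM scale, and in TPM the groups of Ltbp4 and Tgfbr1 overlapped. Tgfbr2 had the smallest p, at 214, 250 and 248 CPM in WT and 295, 265 and 276 CPM in KO (log2 fold change 0.23, SE 0.07, edgeR adjusted p = 0.215). Itgb8, the integrin chain that releases TGF-beta from GARP, went the other way. Chosen after its values were seen, it was at 3.69, 1.68 and 1.10 CPM in WT and 0.779, 0.806 and 0.952 CPM in KO (-1.34 on the log2 scale, edgeR adjusted p = 0.228), highest in WT replicate 1.

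The ectoenzymes of the adenosine pathway differed in level and in spread. Nt5e (chromosome 9, 88327197 to 88372092, plus strand), the most abundant mRNA of the set, was at 775, 898 and 845 CPM in WT and 673, 894 and 865 CPM in KO. KO replicate 1 was lowest, and the other 5 libraries overlapped. The log2 fold change was -0.05 (SE 0.11, 95% interval -0.31 to 0.21, edgeR adjusted p = 0.863). Entpd1 (chromosome 19, 40612366 to 40741602, plus strand) was at 8.41, 8.48 and 8.16 CPM in WT and 6.33, 6.60 and 6.31 CPM in KO. The libraries of a group were close together, with SDs of 2.03% of the mean in WT and 2.56% in KO, and the groups did not overlap. This gave a log2 fold change of -0.38 (SE 0.09, 95% interval -0.60 to -0.16). The unadjusted p was 0.00391 and the edgeR adjusted p 0.140, so Entpd1 did not pass. CD39 is also found on macrophages and B cells. The summed macrophage markers were higher in each KO library, and B cell markers overlapped between the groups. Their relation to Entpd1 was not tested.

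The Entpd1 difference depended on the unit. In TPM it was at 7.15, 5.55 and 5.81 in WT and 3.97, 6.49 and 5.46 in KO, so that the groups overlapped. With limma on log2(TPM + 1) the log2 fold change was -0.20 (adjusted p = 0.623). TPM divides counts by a gene length, and the ratio of counts to TPM gives an implied length for each library. How the authors' program set it is not named in the sources used here. For Entpd1 the implied length was 2063, 2614 and 2467 bases in WT and 2774, 1762 and 2001 bases in KO, a range of 1.57-fold. The median range over 9946 tested genes with at least 100 counts in each library was 1.03-fold, and 0.392% of them varied as much as Entpd1. For Nt5e, Il10, Ebi3, Fgl2 and Areg the implied length was the same in all 6 libraries. GENCODE M21 lists 11 Entpd1 transcripts, from 204 to 4221 bases, and levels of single transcripts were not analysed here.

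RefSeq gives Entpd1 more than 1 start, and the windows around both of its starts are shown because Entpd1 was the member whose implied length varied most. The upstream window (chr19:40612116-40612415, plus strand) holds 23 CG and the downstream one (chr19:40659520-40659819, plus strand) holds 10, in capitals.
Entpd1 upstream: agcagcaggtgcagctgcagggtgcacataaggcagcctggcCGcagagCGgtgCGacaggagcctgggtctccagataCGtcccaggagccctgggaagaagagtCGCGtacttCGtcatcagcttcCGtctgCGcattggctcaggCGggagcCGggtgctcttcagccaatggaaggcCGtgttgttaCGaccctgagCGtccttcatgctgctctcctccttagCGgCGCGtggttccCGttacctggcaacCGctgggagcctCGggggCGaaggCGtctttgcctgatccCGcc
Entpd1 downstream: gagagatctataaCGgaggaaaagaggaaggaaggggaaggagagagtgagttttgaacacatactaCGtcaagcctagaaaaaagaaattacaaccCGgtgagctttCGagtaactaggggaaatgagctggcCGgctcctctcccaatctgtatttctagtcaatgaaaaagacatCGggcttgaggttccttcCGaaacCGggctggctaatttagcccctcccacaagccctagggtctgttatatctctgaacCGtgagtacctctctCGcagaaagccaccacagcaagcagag
Which start was used in these cells was not measured.

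**Figure D3:**
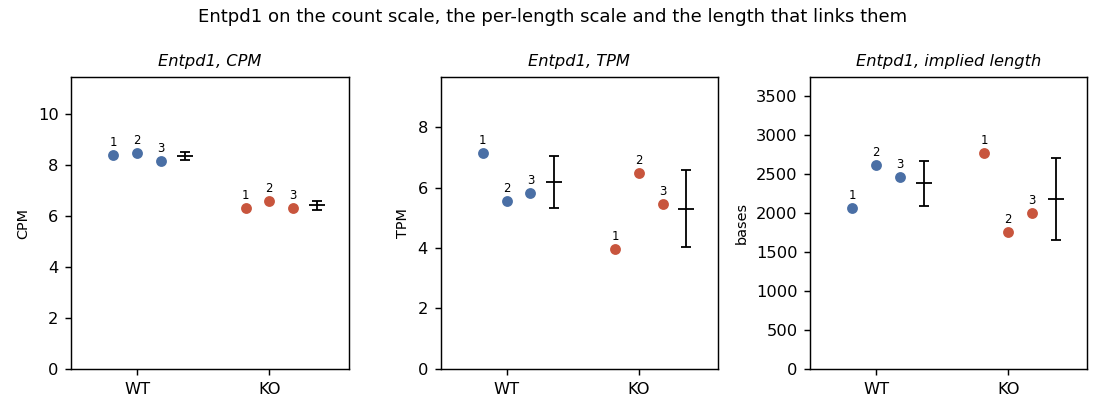
Entpd1 in WT and KO libraries as CPM (left), as TPM (middle) and as the gene length in bases implied by their ratio (right), with points for replicates 1 to 3 and a bar for the mean and SD. On the CPM scale the groups are apart at 8.16 to 8.48 and 6.31 to 6.60, and on the TPM scale they overlap at 5.55 to 7.15 and 3.97 to 6.49.

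Among 23 other genes that handle ATP and adenosine, 17 were tested and 0 passed in either direction with edgeR. The median log2 fold change was 0.03, and 1 was higher and 3 were lower at an unadjusted p under 0.05. Alpl, the tissue-nonspecific alkaline phosphatase, had the smallest p. It was at 2.50, 0.937 and 1.77 CPM in WT and 5.87, 6.06 and 6.15 CPM in KO, with a log2 fold change of 1.81 (SE 0.31, edgeR adjusted p = 0.0561), and DESeq2 called it, the 1 gene of the list that it did. Neutrophils express Alpl, and their markers summed to 302 CPM in KO replicate 1 against 75.3 and 74.5 CPM in the other KO libraries, while Alpl was level over the 3, a relation that was not tested. Without WT replicate 1, where Alpl was the highest of WT, it passed (log2 fold change 2.15, edgeR adjusted p = 0.0328). For 4 of the 17 every KO sample lay below every WT sample, against 10.9% of all tested genes: the adenosine receptor gene Adora2a, the nucleoside transporter Slc29a1, and Ada and Adk, whose enzymes remove adenosine. Adora2a was at 12.1, 11.0 and 8.95 CPM in WT and 7.05, 8.93 and 7.70 CPM in KO (-0.44 on the log2 scale, edgeR adjusted p = 0.216). The closest WT and KO values were 8.95 and 8.93 CPM. For 2 of the 17 every KO sample lay above every WT sample, against 11.9% of all tested genes: Alpl and another adenosine receptor gene, Adora2b. Adora2b was at 1.86, 2.64 and 3.40 CPM in WT and 3.47, 3.85 and 3.84 CPM in KO (0.49 on the log2 scale, edgeR adjusted p = 0.361).

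Fgl2 (chromosome 5, 21372642 to 21378374, plus strand) was at 7.55, 8.39 and 8.22 CPM in WT and 5.85, 7.88 and 6.54 CPM in KO. KO replicate 2 lay inside the WT range and the other 2 KO libraries below it. The log2 fold change was -0.26 (SE 0.13, 95% interval -0.57 to 0.05, edgeR adjusted p = 0.413), and -0.16 without KO replicate 1. Its receptors are inhibitory and activating Fc receptors of myeloid and B cells. Of the 4 genes listed for FGL2 receptors and relatives, 3 were tested and 0 passed with edgeR (median 0.80, or 0.23 without KO replicate 1). At an unadjusted p under 0.05, 1 was higher and 0 were lower. Fcgr2b, the inhibitory receptor gene of the list, was at 3.58, 4.26 and 1.51 CPM in WT and 8.84, 3.37 and 3.91 CPM in KO. Its groups overlapped. Fcgr3 was at 1.86, 1.43 and 1.25 CPM in WT and 6.33, 3.29 and 3.29 CPM in KO. The log2 fold change of Fcgr3 was 1.52 (SE 0.31, edgeR adjusted p = 0.0894), and DESeq2 called it. Fcgr3 is a gene of macrophages, neutrophils and NK cells, and it was highest in KO replicate 1 like the macrophage and neutrophil markers, a relation that was not tested.

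The tissue-repair ligand Areg (chromosome 5, 91139599 to 91148432, plus strand) was at 0.916, 1.43 and 1.36 CPM in WT and 0.599, 1.28 and 1.54 CPM in KO. Replicate 1 was the lowest library in each group, and the groups overlapped. Areg had a log2 fold change of -0.13 with a wide 95% interval of -0.99 to 0.73 (SE 0.37, edgeR adjusted p = 0.899), and it was 0.19 without KO replicate 1. It had 163 counts in WT and 133 in KO. Counting error alone gives a WT to KO ratio of 1.16 with a 95% exact interval of 0.915 to 1.47, narrower than the fitted one, which also holds the spread between libraries. Of 14 other EGF family ligands, sheddases and receptors, 8 were tested and 0 passed (median -0.08). At an unadjusted p under 0.05, 0 were higher and 0 lower, and DESeq2 called 0. Erbb3, a receptor of the family, had the smallest p (log2 fold change -0.15, SE 0.09, edgeR adjusted p = 0.481). The sheddase Adam10 was at 301 to 407 CPM over the 6 libraries and Adam17, which releases amphiregulin, at 82.8 to 87.9 CPM. Egfr itself was at 0.399 to 1.14 CPM. Per gene length, the EGF family ligand Hbegf lay between 46.4 and 94.0 TPM, and Areg between 0.859 and 2.20 TPM.

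Penk (chromosome 4, 4133531 to 4138819, minus strand) was at 15.2, 16.2 and 14.0 CPM in WT and 8.96, 7.71 and 6.69 CPM in KO. The lowest WT library was above the highest KO library, and the values within each group were close. Mean levels were 15.1 ± 1.12 CPM for WT and 7.79 ± 1.14 CPM for KO (SD, n = 3 each). On the log2 scale Penk fell by 0.96 (SE 0.12, interval of the fold change -1.24 to -0.67 at 95%), and the edgeR adjusted p was 0.0234. Ranked by size of change, it stood at place 15 among the 28 genes called lower. The counts behind it were 1960 in WT and 967 in KO. In TPM, Penk was at 20.4, 21.7 and 19.4 in WT and 11.4, 10.4 and 8.47 in KO, and the groups were apart on that scale too.

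The size of the Penk difference changed little between settings, but its adjusted p did. Over 17 alternatives the log2 fold change ranged from -1.07 to -0.86, and 12 of them called Penk. It was not called without WT replicate 2 (-0.90, edgeR adjusted p = 0.0998), WT replicate 3 (-1.01, 0.0652), KO replicate 2 (-0.95, 0.0740) or KO replicate 3 (-0.86, 0.0909), or with KO replicates 2 and 3 summed as 1 library (-0.91, 0.0789). Without KO replicate 1, where macrophage and neutrophil markers were highest, it was -1.07 (0.0227). Those markers were higher in KO than in WT in the remaining libraries too.

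**Figure D4:**
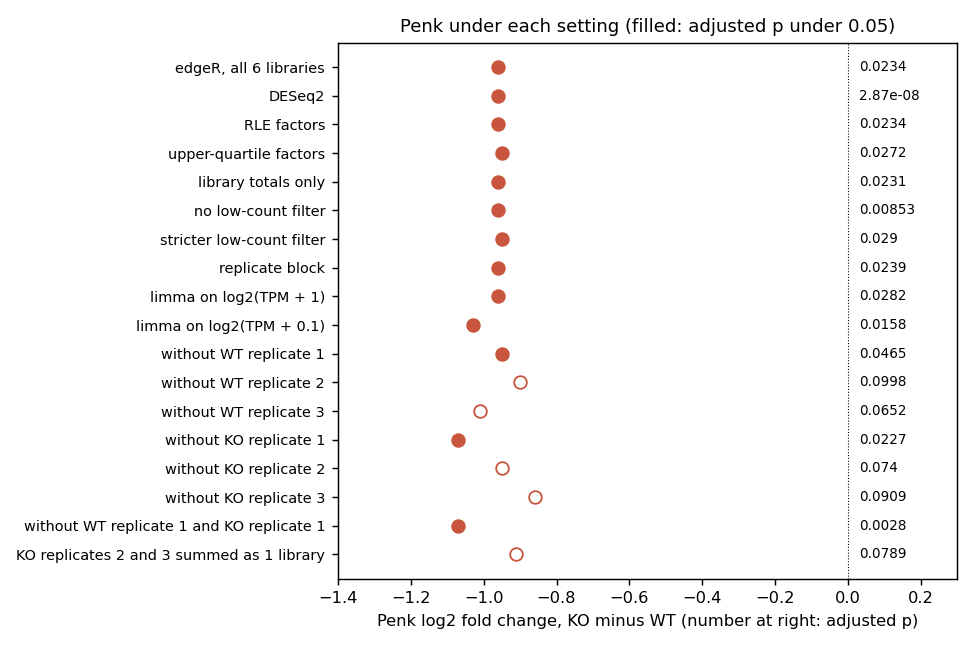
Penk log2 fold change, KO minus WT (horizontal axis), with all 6 libraries and under each of 17 alternative settings (vertical axis), with adjusted p at the right and points filled where it is under 0.05. All points lie between -1.07 and -0.86, and the 5 open points are settings in which 1 library other than replicate 1 was left out or KO replicates 2 and 3 were summed.

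Of 18 genes for opioid peptide processing and reception, 10 were tested and 0 passed in either direction with edgeR (median -0.02; 2 higher and 1 lower at an unadjusted p under 0.05). The main enzymes that cut and trim proenkephalin in neuroendocrine cells are the convertases Pcsk1 and Pcsk2 and the carboxypeptidase Cpe. Pcsk2 was at 0 in every library, Pcsk1 was at 0.250, 0.575 and 0.366 CPM in WT and 0.0798, 0.149 and 0.309 CPM in KO, and Cpe at 0.638, 1.09 and 0.753 CPM in WT and 0.379, 0.478 and 0.232 CPM in KO. The groups overlapped for Pcsk1 and not for Cpe (log2 fold change -1.20, edgeR adjusted p = 0.195). The widely expressed convertase Furin was at 375 to 586 CPM and the carboxypeptidase Cpd at 615 to 944 CPM over the libraries. The opioid receptor gene Oprk1 was at 0 in every library, and Oprm1 and Oprd1 reached at most 0.222 CPM in any library. Anpep, an aminopeptidase that degrades enkephalins, had the smallest p (log2 fold change 1.98, SE 0.43, edgeR adjusted p = 0.111), and DESeq2 called it, the 1 gene of the list that it did. It was at 1.33, 1.41 and 1.36 CPM in WT and 9.30, 3.55 and 3.19 CPM in KO. Myeloid cells express Anpep, and its highest library was KO replicate 1, as for the macrophage markers, a relation that was not tested. Without that library Anpep passed (log2 fold change 1.30, edgeR adjusted p = 0.0429).

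Among 9828 tested genes that reached 2 in mean log2 CPM, the 5 whose log2 CPM followed Penk most closely over the 6 libraries were Cryzl2 (r = 0.990), Syn1 (0.990), Tex15 (0.989), Btla (0.988) and Osbpl3 (0.985). These are Pearson correlations over libraries that share the WT and KO split, and 130 genes had an r over 0.9. Syn1, a synaptic vesicle gene, was at 8.22, 9.10 and 8.03 CPM in WT and 4.93, 4.93 and 4.27 CPM in KO (-0.84 on the log2 scale, edgeR adjusted p = 0.0292). It did not pass without WT replicate 2 (0.122) or 3 (0.0954) or KO replicate 2 (0.0805) or 3 (0.144). Nor did Syn1 pass with KO replicates 2 and 3 summed as 1 library (edgeR adjusted p = 0.0951). With limma on log2(TPM + 1) its adjusted p was 0.0519. Btla, an inhibitory receptor of lymphocytes, was at 101, 110 and 92.7 CPM in WT and 55.2, 34.2 and 32.1 CPM in KO (-1.32 on the log2 scale, edgeR adjusted p = 0.0600), and passed without KO replicate 1 (-1.61, 0.00144). Cryzl2, Tex15 and Osbpl3 had log2 fold changes of -0.53, -0.45 and -0.37 and did not pass, though Osbpl3 did without KO replicate 1 (-0.42, 0.0486).

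Within 1 Mb of the 10 members, 163 neighbours were tested, from 7 to 35 for each member, and edgeR called 0 of them, against 0.674% of all tested genes. At an unadjusted p under 0.05 there were 30, against 15.1% of all tested genes, and DESeq2 called 2, against 4.17%: Cxcl3, a chemokine gene near Areg, and 1110032F04Rik near Il12a, both named after their values were seen. Penk overlaps A830012C17Rik and Ebi3 overlaps Gm16712, each on the opposite strand. Fgl2 lies within Ccdc146, also on the opposite strand, which had 0 counts in every library. The sources used here do not say whether counting used strand, so reads of Penk and Ebi3 cannot be told apart from those of their antisense partners. Entpd1 holds 3 genes on its own strand, the processed pseudogenes Gm16027 and Gm8783 and the intronic AC166063.1, and how reads were shared among them is not stated either.

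**Figure D5:**
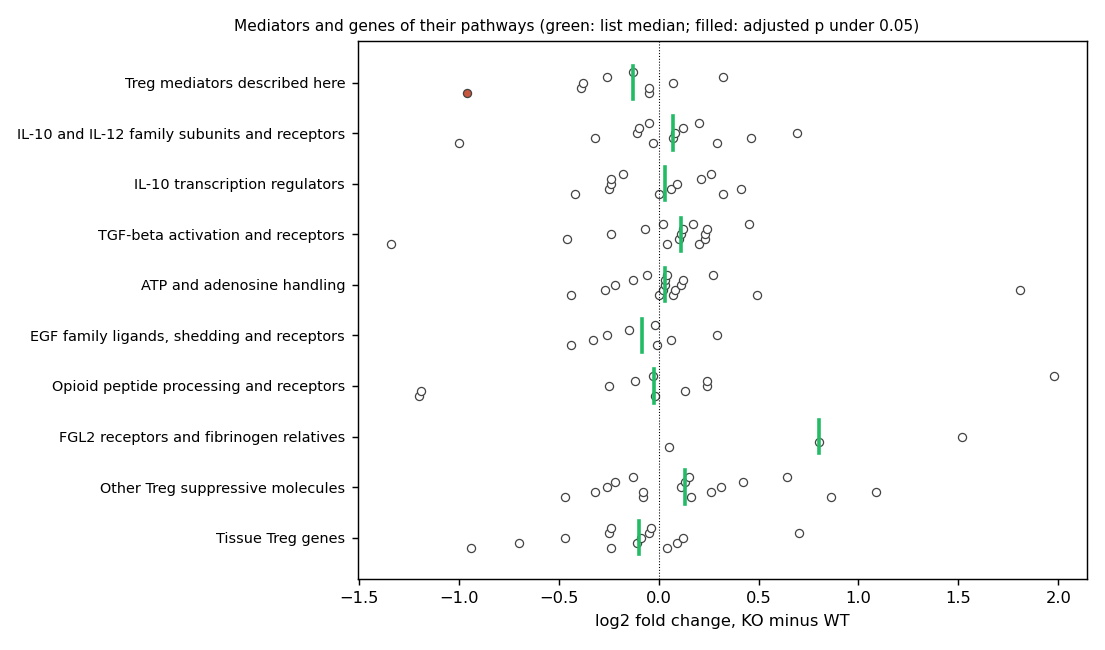
Log2 fold change, KO minus WT (horizontal axis), of the tested genes of the mediator set and of 9 lists of related genes (vertical axis), with the list median as a green bar and points filled where the edgeR adjusted p is under 0.05. Penk is the filled point, and the list medians lie between -0.13 and 0.13 except for the 3 tested genes of the FGL2 list at 0.80.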

How the data were processed

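Bulk mRNA libraries of 3 WT and 3 KO iTreg samples were analysed, grouped by their titles. The submitters' processing notes name FastQC and HISAT2, an aligner. The sources used here do not name the genome build, annotation or counting program. Per the file headers, the authors deposited estimated counts per gene (expected counts, not all whole) and TPM, which the authors scaled by gene length and library total. Counts were rounded, filtered by edgeR's filterByExpr (12768 genes kept, 9131 not kept) and scaled by TMM (factors 0.988 to 1.01). Genotypes were compared in edgeR 4.0.16 (quasi-likelihood, robust, two-sided), with p-values adjusted by Benjamini-Hochberg over all tested genes at 0.05. Counting intervals are exact at 95% and cover counting error only. Alternatives used DESeq2 1.42.0, limma 3.58.1 on log2(TPM + 1) and log2(TPM + 0.1), other factors and filters, a replicate block and left-out libraries. The implied length is the ratio of counts to TPM, scaled by protein-coding genes with 1 transcript in GENCODE M21 and at least 500 counts (464 to 547 genes a library). Positions come from GENCODE M21, which matched 21806 of 21899 identifiers and need not be the authors' annotation. The edgeR test was tried on simulated data first. R 4.3.3, Python 3.11.15 and matplotlib 3.10.9 were used.

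The members and lists were chosen with earlier results of these data known. Named were all members, the genes of each related list that passed or else the gene of smallest p, the 5 genes most like Penk, Dlst and Foxp3. Other genes were named after their values were seen: Itgb8, Ltbp4, Tgfbr1, Smad3, Smad7, Adora2a, Slc29a1, Ada, Adk, Adam10, Adam17, Egfr, Hbegf, Pcsk1, Pcsk2, Cpe, Cpd, Furin, Oprk1, Oprm1, Oprd1, Ddx3y, Eif2s3y, Uty, Kdm5d, Cd4, Trac, Ikzf2, C1qa, C1qb, C1qc, Ms4a7, Fcgr1, Elane, Mrc1, Mmp8, Prss34, Itgax, Batf3, Cd8a, Cd8b1, Fcgr2b, Adora2b, Cxcl3, 1110032F04Rik and those of the closing observations.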

Additional observations from a re-analysis of the deposited data

How the results depend on the processing

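Of 9 tested members, 1 was called lower with all 6 libraries. Leaving out 1 library at a time gave 0 to 1, and summing KO replicates 2 and 3 gave 0. The count of members called higher was 0 under all 17 alternatives. Over all genes, 86 were called, against 532 with DESeq2, 133 with no low-count filter, 39 with limma on log2(TPM + 1), 538 without WT replicate 1 and KO replicate 1 together, 8 with KO replicates 2 and 3 summed, and 4 to 93 when 1 library was left out (27 and 16 when it was WT replicate 2 or 3, 10 and 4 when it was KO replicate 2 or 3). With a replicate block 177 genes were called, and the block changed no call of a member. It added calls for Ikzf3 (0.41, edgeR adjusted p = 0.0440), Fcgr3 (1.46, 0.0351) and Btla (-1.36, 0.0373). Deviations of same-numbered samples correlated at 0.184, 0.0780 and 0.0841, and not every sample correlated best with its own number (0.112 for WT replicate 2 with KO replicate 3), so the numbers were not taken to pair the samples. The sign turned for Ebi3 without KO replicate 1 (-0.13) and without both replicates 1 (-0.19), for Areg (0.19 and 0.03), for Nt5e (0.07 and 0.01, and 0.002 without WT replicate 2) and for Tgfb1 without WT replicate 2 (0.004). Leaving out 1 library at a time, Ebi3 ranged from -0.13 to 0.18 and Areg from -0.42 to 0.19. The causes were not tested. Il10, Fgl2, Lrrc32, Entpd1 and Penk kept their sign in all 17, and of these only Penk was called in any. Depth limits Il12a most.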

Other observations

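Beyond the mediators themselves, 18 other molecules by which Treg cells suppress were listed, and 17 were tested. With edgeR 0 passed in either direction, DESeq2 called 0, and at an unadjusted p under 0.05 there were 3 higher and 2 lower. The median log2 fold change was 0.13, or 0.07 without KO replicate 1. Lgals3, which encodes galectin-3, had the smallest p: it was at 16.6, 29.0 and 35.6 CPM in WT and 78.4, 46.4 and 48.7 CPM in KO (log2 fold change 1.09, SE 0.33, edgeR adjusted p = 0.219). Macrophages express it strongly, and its highest library was KO replicate 1, as for their markers, a relation that was not tested. The inhibitory receptor gene Pdcd1 was at 260, 297 and 253 CPM in WT and 205, 246 and 224 CPM in KO, and the costimulatory receptor gene Icos at 132, 115 and 111 CPM in WT and 94.7, 108 and 104 CPM in KO. For both, every KO sample lay below every WT sample, and neither passed (edgeR adjusted p = 0.229 and 0.262). These were 2 of 17, against 10.9% of all tested genes. For 4 of 17, Lgals3, Havcr2, Prf1 and Lgals9, every KO sample lay above every WT sample, against 11.9%, and the edgeR adjusted p of the last 3 was 0.301, 0.358 and 0.305. Ctla4 lay between 67.4 and 99.5 CPM over the 6 libraries.

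Of 15 genes linked to Treg cells of non-lymphoid tissue, 14 were tested and 0 passed with edgeR. The median log2 fold change was -0.10, or -0.12 without KO replicate 1, with 4 above 0 and 10 below. Gata3, Batf, Irf4 and Nfil3 were also in the list of Il10 regulators. At an unadjusted p under 0.05, 0 were higher and 4 lower, against 8.47% and 6.60% of all tested genes. DESeq2 called 0 higher and 1 lower, against 2.88% and 1.29%. The gene was Cxcr6, a chemokine receptor gene at 23.6, 32.6 and 28.5 CPM in WT and 19.3, 21.7 and 20.6 CPM in KO (log2 fold change -0.47, SE 0.12, edgeR adjusted p = 0.142). Without WT replicate 1 it passed (-0.58, 0.0465). Irf4, a transcription factor of effector Treg cells, was at 1220, 1171 and 1089 CPM in WT and 840, 1074 and 1011 CPM in KO. Its groups did not overlap, and KO replicate 1 was lowest (log2 fold change -0.25, edgeR adjusted p = 0.268). Tnfrsf8, which encodes CD30, was at 1.80, 2.66 and 1.66 CPM in WT and 0.898, 1.22 and 1.08 CPM in KO (-0.94 on the log2 scale, edgeR adjusted p = 0.171). For 3 of 14, Cxcr6, Irf4 and Tnfrsf8, every KO sample lay below every WT sample, against 10.9% of all tested genes. For 0 of 14 did every KO sample lie above, against 11.9%.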
